A study of Mus musculus with 24 samples.

Results

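Male mice born to vitamin D deficient (VDD) mothers and fed a low-fat (LF) diet were compared with LF-fed males born to vitamin D sufficient (CTRL) mothers. The measurement was RNA-seq of polyadenylated RNA from retroperitoneal white adipose tissue, the visceral fat pad behind the abdominal cavity. The comparison holds 6 libraries of the 24 in the series, 3 VDD LF males and 3 CTRL LF males, and was chosen by maternal diet, offspring diet and sex alone. Of 56895 entries in its table, 15438 were tested, those that reached 10 normalized reads in 3 or more libraries.

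All mice were C57BL/6J by the labels and C57BL/6JRJ in the study's methods. The mothers of CTRL males ate AIN-93G diet with 1.0 IU of vitamin D3 per g for 8 weeks before mating, and the mothers of VDD males ate AIN-93G with 0.0 IU per g. From birth to weaning every mother ate the diet with vitamin D3, so the groups differ in the diet before delivery only. The sons of both groups ate the LF diet AIN-93M for 8 weeks from the age of 6 weeks. Later comparisons also use males with the same maternal diets fed a high-fat (HF) diet over the same weeks, and LF-fed females. Tissue was taken after an overnight fast. The sources do not give the litter of each male, so p-values measure only the spread between these 6 samples, and males of a group may or may not be sons of different mothers.

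Vitamin D acts through the vitamin D receptor, a nuclear receptor that binds DNA together with a retinoid X receptor and switches target genes on or off. White adipocytes store triglyceride and secrete hormones such as leptin, and they share the fat pad with macrophages, fibroblast-like progenitors, mast cells and blood vessels. Their mitochondria hold the respiratory chain, a set of protein complexes that passes electrons to oxygen and drives the synthesis of ATP.

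Libraries are given throughout in the order CTRL LF 2293, 2296 and 2287, then VDD LF 2078, 2310 and 2302, the numbers being those of the animals. The libraries held 13720497 to 17330046 reads on genes. Adipocyte markers, which check the tissue label, held 2.89 to 6.36% of the reads, and Fabp4, the fatty acid carrier of adipocytes, had 153387 to 490820 normalized reads. VDD LF 2310 stood apart, with a median correlation of 0.869 to the other 5 libraries, against 0.940 to 0.948 for those. Skeletal muscle markers held 8.94% of its reads, against 0.66% in CTRL LF 2287, 0.453% in VDD LF 2302 and 0.00593 to 0.00941% in the remaining 3 libraries. All 20 muscle genes tested had a log2 difference above 0 between the groups (median 3.31, 0 at an unadjusted p under 0.05), and without VDD LF 2310 the median was 0.27. Markers of mesothelium, the cell sheet that lines the abdominal cavity, summed to 5264, 3777 and 2273 normalized reads in CTRL LF and 360, 16364 and 1402 in VDD LF males. B lymphocyte markers summed to 3354, 35415 and 6333 against 8898, 2787 and 2373, so that CTRL LF 2296 was highest. The word renal is in the names of CTRL LF 2287 and VDD LF 2302, 1 library of each group, and the sources do not explain it. In bulk tissue, fewer cells of a type and less RNA per cell cannot be told apart, so the main groups of genes are also given without VDD LF 2310.

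**Figure D1:**
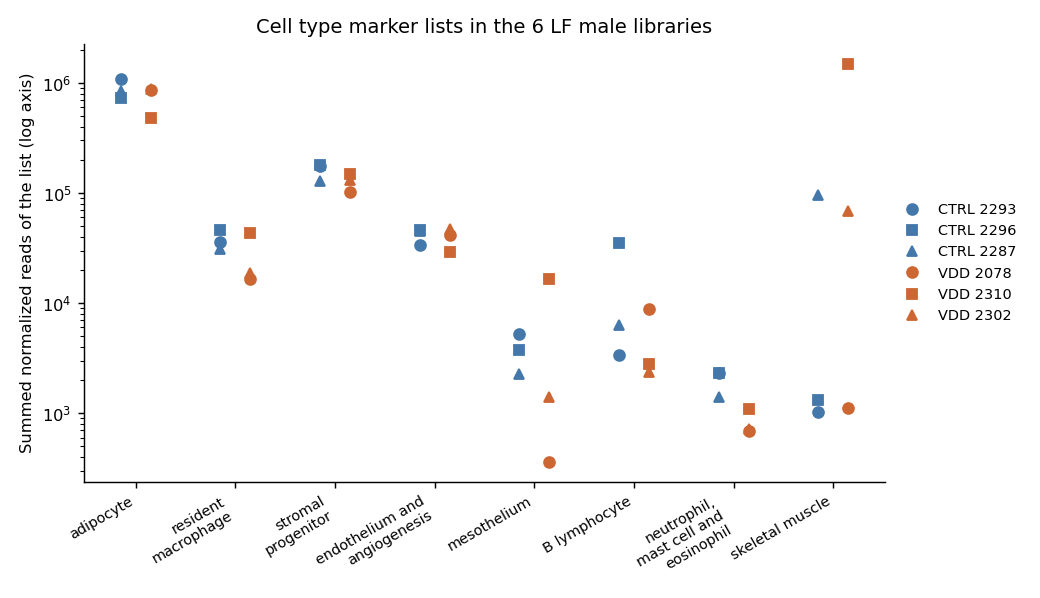
Summed normalized reads (log axis) of 8 cell type marker lists in each of the 6 LF male libraries, 1 point per library, CTRL in blue and VDD in orange. VDD LF 2310 is highest for skeletal muscle (8.94% of its reads) and mesothelium (16364 reads) and lowest for adipocytes (2.89% of its reads), while the neutrophil, mast cell and eosinophil list is lower in all 3 VDD libraries than in all 3 CTRL libraries.

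No gene differed between VDD LF and CTRL LF males at the threshold used for calling, an adjusted p under 0.01 with a fold change above 1.5 or below 0.66 (0 of 15438 genes, 0%). The test was limma on the log2 values with Benjamini-Hochberg adjustment over all genes tested, and the smallest adjusted p was 0.273. At an unadjusted p under 0.05, 482 genes (3.12%) were higher and 566 (3.67%) lower in VDD LF males. limma-voom on the recovered reads also called 0 genes, with 473 higher and 566 lower at an unadjusted p under 0.05. Groups did not overlap for 1054 genes higher (6.83%) and 1017 genes lower (6.59%) in VDD LF males. An exact permutation test of 3 against 3 libraries cannot give a p below 0.1. All genes named below are thus described by their values, not as changed.

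The gene with the smallest p was Gucd1, which encodes a guanylyl cyclase domain protein (GRCm38 chromosome 10, 75351111 to 75517972, minus strand). It had 1044, 1064 and 941 normalized reads in CTRL LF and 2658, 2649 and 2555 in VDD LF males, a log2 difference of 1.37 ± 0.13 (SE, limma adjusted p = 0.273). The groups were far apart and each was tight. Coq8a, an atypical kinase needed to make the electron carrier coenzyme Q (chromosome 1, 180165238 to 180199602, minus strand), had 1784, 1203 and 1345 reads against 4003, 4256 and 4001 (1.52 ± 0.18, limma adjusted p = 0.315). Gpd2, the mitochondrial glycerol-3-phosphate dehydrogenase that hands electrons to coenzyme Q, had 803, 711 and 944 against 1834, 1526 and 1612 (1.02 ± 0.16). Slc25a34, a member of the mitochondrial carrier family, had 80.0, 54.3 and 119.9 against 441, 303 and 287 (2.05 ± 0.33). Esrra, the nuclear receptor ERRα that drives mitochondrial genes, had 402, 363 and 404 against 662, 637 and 614 (0.71 ± 0.14). In each of these genes the lowest VDD LF male was above the highest CTRL LF male.

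Several other genes were higher in all 3 VDD LF males. Fbxo31, a substrate-binding subunit of a ubiquitin ligase, had 1400, 1659 and 861 normalized reads against 3466, 3714 and 3480 (1.49 ± 0.25). Serpina3k, a secreted protease inhibitor, had 124, 121 and 74.6 against 706, 432 and 392 (2.24 ± 0.31). It belongs to a family of close copies on chromosome 12, so reads that fit several copies were dropped by the unique alignment and its level is less certain. Lrig1, a brake on growth factor receptors (0.84 ± 0.15), Fn3k, which repairs glycated proteins (1.58 ± 0.29), Pde4d, a cAMP phosphodiesterase (1.48 ± 0.29), and Mtfp1, a mitochondrial fission protein (1.24 ± 0.25), were also among the 12 higher genes with the smallest p. The adjusted p of the 12 (limma) lay between 0.273 and 0.575.

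Among genes lower in VDD LF males, Cxcl13 had the smallest p. It encodes the chemokine that draws B lymphocytes into lymphoid clusters (chromosome 5, 95956951 to 95961068, plus strand). Cxcl13 had 693, 837 and 814 normalized reads in CTRL LF and 274, 332 and 252 in VDD LF males, a log2 difference of -1.45 ± 0.17 (limma adjusted p = 0.315). The CTRL males had the same order for Cxcl13 as for the summed B lymphocyte markers. Those markers were highest in CTRL LF 2296 by a wide margin, while Cxcl13 was similar in all 3 CTRL males. VDD LF 2078 had more B lymphocyte reads than CTRL LF 2293 and 2287 but less Cxcl13 than either. The part of B lymphocytes in the Cxcl13 values was not tested. Coro2a, an actin-binding coronin, had 544, 484 and 392 against 113, 99.6 and 159.8 (-1.94 ± 0.24). Slc6a13, a transporter of GABA and taurine, had 819.9, 769 and 1119 against 113, 106 and 276 (-2.57 ± 0.38). Hpgd, which inactivates prostaglandins, had 2355, 1511 and 1648 against 680.4, 716 and 777 (-1.32 ± 0.20). Npr3, the clearance receptor for natriuretic peptides (chromosome 15, 11839896 to 11907287, minus strand), had 4944, 3889 and 7010.3 against 1227, 1239.7 and 2142 (-1.79 ± 0.30). None of these genes overlapped between groups.

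The largest decreases in value were in genes with few reads left in VDD LF males. Slc5a7, the choline transporter, had 199.97, 110.2 and 424 normalized reads against 1.16, 19.9 and 16.9, and Prr32, of unclear role, had 182, 78.6 and 294 against 2.31, 7.34 and 19.5. Dusp9, a phosphatase that switches off MAP kinases, had 54.4, 115 and 129 against 2.31, 6.29 and 12.4. Mest, an imprinted gene linked to adipocyte enlargement (chromosome 6, 30723547 to 30748465, plus strand), had 1836, 1941 and 4109 against 72.9, 119 and 895. Its log2 difference was -3.62 ± 0.89, and VDD LF 2302 kept far more Mest than the other two VDD males. Alox15, a lipoxygenase of macrophages and eosinophils, had 94.4, 546 and 194 against 4.63, 60.8 and 24.9. Crtac1, Bmp3, Ugt1a6b, Klhl5 and Chil3 were also among the 12 lower genes with the smallest p, with log2 differences from -2.26 to -0.91. Ugt1a6b shares exons with its neighbours at the Ugt1a locus, so its level is less certain. The unnamed entries 2310061I04Rik (0.88), Gm867 (-1.96) and Gm15519 (-1.57) did not overlap between groups either.

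**Figure D2:**
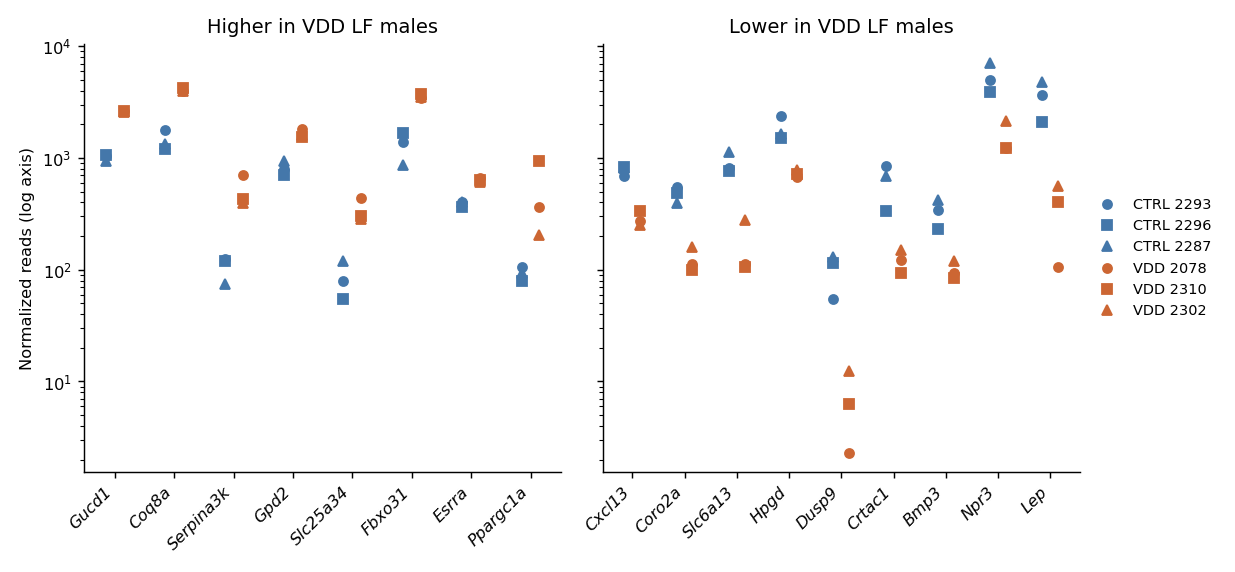
Normalized reads (log axis) of 8 genes higher and 9 genes lower in VDD LF males, 1 point per library, CTRL in blue and VDD in orange, with a marker shape for each animal within its group. The groups do not overlap in any of the 17 genes, with Gucd1 at 941 to 1064 reads in CTRL and 2555 to 2658 in VDD males, and Lep at 2113 to 4808 and 105 to 564.

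The nuclear genes of the mitochondrial respiratory chain had higher values in VDD LF males without exception. All 75 tested members had a log2 difference above 0, with a median log2 difference of 0.49 against 0.01 for all genes tested. At an unadjusted p under 0.05, 27 of the 75 were higher and 0 lower, against 3.12% and 3.67% of all genes. Groups did not overlap for 23 of the 75, all higher, against 6.83% of all genes higher without overlap. None of the 75 passed the adjusted threshold. The members share a normalization and tend to move together between libraries, so the 75 are not independent.

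Complex I, which takes electrons from NADH, had 37 tested members with a median of 0.48, of which 15 had an unadjusted p under 0.05. Its core subunit Ndufs7 had 1151, 862 and 832 normalized reads in CTRL LF and 1477, 1490.4 and 1449 in VDD LF males (0.65 ± 0.17, limma adjusted p = 0.632). Each VDD LF male was above every CTRL LF male. The 4 members of complex II had a median of 0.39 and the 9 of complex III 0.52. Complex IV, which passes electrons to oxygen, had a median of 0.46 over 10 members, and Cox5a within it had 2421, 1369 and 2233 reads against 3993, 3859 and 3352 (0.93 ± 0.24). The 15 members of complex V, the ATP synthase, had a median of 0.51, with 6 at an unadjusted p under 0.05.

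The mean log2 level over the 75 genes was 11.20, 10.48 and 10.75 in CTRL LF and 11.45, 11.20 and 11.26 in VDD LF males. CTRL LF 2293 thus reached the level of the lowest VDD male, and the groups overlapped. Muscle is rich in these genes. VDD LF 2078, with muscle markers at 0.00697% of its reads, had the highest level of the 6, and VDD LF 2310, with 8.94%, the lowest of the VDD males. Leaving out VDD LF 2310 kept all 75 log2 differences above 0, with a median of 0.55 and 36 at an unadjusted p under 0.05 (background without that library 6.80% higher and 9.43% lower). With the summed muscle reads as a term in the fit the median was 0.57. The part of muscle in the respiratory chain values was not tested.

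Genes of thermogenic fat, which burns fuel for heat, spread more widely. Of 25 tested, 18 were higher and 7 lower, with a median log2 difference of 0.48. At an unadjusted p under 0.05, 6 were higher and 1 lower, against 3.12% and 3.67% of all genes. Ppargc1a, the coactivator PGC-1α that raises mitochondrial gene expression (chromosome 5, 51454250 to 51567726, minus strand), had 107, 78.6 and 92.7 normalized reads in CTRL LF and 361, 939.8 and 202 in VDD LF males (2.14 ± 0.52, limma adjusted p = 0.60). The log2 difference of Ppargc1a was 1.55 without VDD LF 2310, its highest library. Cox7a1, a complex IV subunit of muscle and brown fat, had 80.0, 25.9 and 115 against 224, 657 and 257 (2.42 ± 0.63). Tmem26, a marker used for beige adipocytes, was lower in all 3 VDD males, at 13.3, 19.4 and 14.1 reads in CTRL and 6.94, 4.20 and 8.88 in VDD males. Ucp1, the uncoupling protein that makes the heat, had 38.9, 13.8 and 216 against 1279, 2.10 and 488. Its groups overlapped, because VDD LF 2310 had the least Ucp1 of the 6 libraries and the other two VDD males the most (1.31 ± 2.21). The log2 difference of Ucp1 was 3.97 without VDD LF 2310 and -0.37 without VDD LF 2078. The thermogenic list had a median of 0.85 without VDD LF 2310, with 12 of 24 at an unadjusted p under 0.05. In that fit 6.80% of all genes were higher and 9.43% lower at that threshold.

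Fatty acid oxidation, the pathway that feeds the chain, had 26 of 37 tested genes higher and a median of 0.17. Cpt1b, the carnitine transferase of muscle and brown fat, had 6.67, 4.86 and 15.1 normalized reads against 20.8, 30.4 and 24.9, and Abcd2, a peroxisomal fatty acid transporter, was lower, at 11437, 8240 and 10260.1 reads in CTRL and 5852, 4131 and 5943 in VDD males. Of the mitochondrial members 17 of 21 were higher, and of the peroxisomal members 4 of 9. The median was 0.41 without VDD LF 2310. At an unadjusted p under 0.05, 12 genes were then higher and 3 lower, against 6.80% and 9.43% of all genes.

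**Figure D3:**
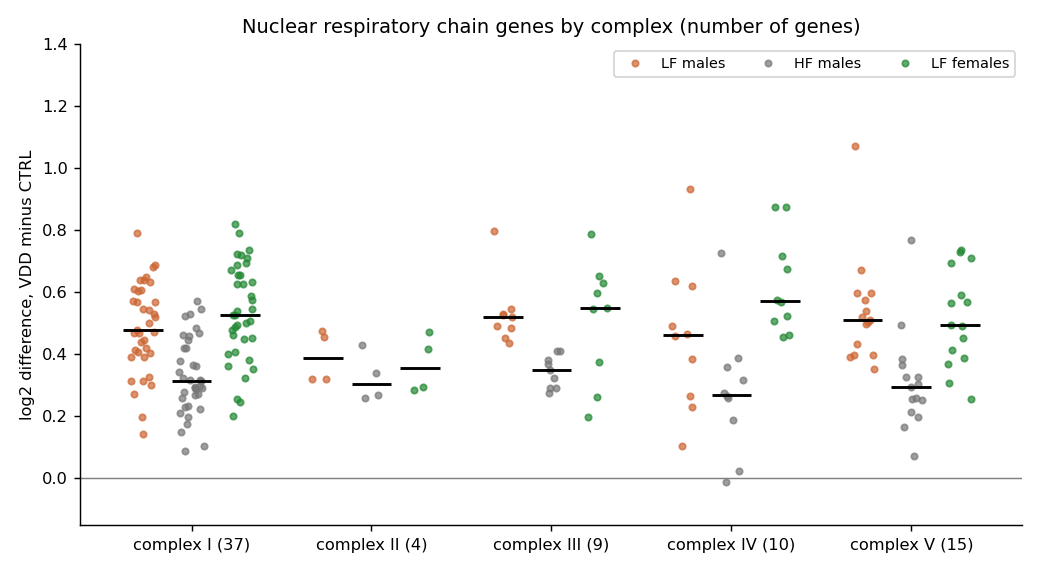
Log2 differences (VDD minus CTRL, vertical axis) of the 75 nuclear respiratory chain genes by complex, 1 point per gene, in LF males (orange), HF males (grey) and LF females (green), with the median of each complex as a bar. All 75 points of LF males and of LF females lie above 0, as do 74 of the 75 of HF males.

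The element AAGGTCA, read by ERRα and related orphan receptors, was looked for in the 250 bases before the start of each gene. RefSeq promoters (GRCm38.p6) matched 10862 of the 15438 genes tested. Among these, 404 (3.72%) held AAGGTCA on either strand. It was in 5 of 62 (8.06%) respiratory chain genes, in 16 of 355 (4.51%) of the genes higher at an unadjusted p under 0.05 and in 16 of 401 (3.99%) of the lower ones. The longer form TCAAGGTCA, which contains it, was in 33 (0.304%) of all promoters and in 1 of the 62. A direct repeat of the vitamin D response element type was in 2 (0.0184%) of all promoters and in 0 of the 62 and of the genes higher or lower. The E-box CACGTG was in 1052 (9.69%) of all promoters, in 5 of the 62 (8.06%) and in 5 of 18 (27.8%) promoters of the circadian clock list. A match is only a run of letters in this window and says nothing of binding.

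The 5 respiratory chain windows with AAGGTCA are shown with 10 bases on either side, or fewer at the window's end, because all members of this group had higher values in VDD LF males. Capitals mark the element and each window is read 5′ to 3′ on the strand where it is written AAGGTCA.
Atp5g3, complex V, chr2:73911362-73911388, plus strand: gaagacgctcAAGGTCActttgtaaca
Atp5l, complex V, chr9:44920743-44920765, plus strand: atttccAAGGTCAggctgcccct
Ndufb2, complex I, chr6:39592374-39592400, plus strand: gagcagcagtAAGGTCAgccaagagca
Ndufb4, complex I, chr16:37654407-37654433, minus strand: cctgagcctgAAGGTCAgactcgagag
Ndufs5, complex I, chr4:123718398-123718424, plus strand: ctacttgagcAAGGTCAcactcgagaa
The element lay from 7 to 222 bases before the start in these genes. It was also in promoters of other named genes in both directions. Slc6a13 and Tlr9, with lower values in VDD LF males, held it. So did Col7a1, Ccl27a, Rxrg and Slc25a34, the mitochondrial carrier, with higher values. The window of Slc25a34 follows.
Slc25a34, chr4:141623937-141623963, plus strand: atctggaggaAAGGTCActtgtgactg

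Leptin, the hormone that reports fat stores to the brain, was the most different of the adipokines. Lep (chromosome 6, 29060220 to 29073877, plus strand) had 3646, 2113 and 4808 normalized reads in CTRL LF and 105, 407 and 564 in VDD LF males, 11.5-fold lower in VDD males (log2 -3.52 ± 0.63, limma adjusted p = 0.523). The highest VDD male was far below the lowest CTRL male. Leaving out each library in turn gave log2 differences of Lep between -4.00 and -2.80. Adiponectin (Adipoq) had 97731, 63767 and 63237 against 56011, 45938 and 60068 (-0.45 ± 0.41), so its groups lay side by side with a narrow gap. Agt, the precursor of angiotensin, was higher, at 1282, 1669 and 1398 reads in CTRL and 3343, 2193 and 3024 in VDD males (0.96 ± 0.21), as was Nampt, the NAD-making enzyme also called visfatin (0.76 ± 0.20). Bmp3, a secreted member of the BMP family, had 344, 229 and 419 against 92.6, 83.9 and 119.9, and C1qtnf1 had a log2 difference of -1.02 ± 0.23. Of 28 adipokine genes tested, 8 were higher and 20 lower with a median of -0.44. At an unadjusted p under 0.05, 2 were higher and 6 lower, against 3.12% and 3.67% of all genes. The median was -0.29 without VDD LF 2310.

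Lipid handling in adipocytes showed no common direction. Of 49 lipolysis genes, 17 were higher and 32 lower (median -0.16). At an unadjusted p under 0.05, 4 were higher and 7 lower, against 3.12% and 3.67% of all genes. Adcy5, which makes the cAMP that starts lipolysis, had 3539, 3818 and 3691 normalized reads against 1271, 1654 and 2445 (-1.09 ± 0.25). Leaving out VDD LF 2310 turned the lipolysis median to 0.08, with 26 higher and 23 lower. Hilpda, an inhibitor of the lipase ATGL, was lower as well (-0.68 ± 0.24). Rgs2, a brake on G protein signals, was higher, at 1119, 950.2 and 323 reads in CTRL and 1971, 2022 and 3658 in VDD males (1.80 ± 0.49). De novo lipogenesis had 19 of 29 genes higher (median 0.13). Its 1 gene with an unadjusted p under 0.05 (3.67% of all genes lower) was G6pdx, the NADPH-making dehydrogenase. G6pdx was lower, at 3803, 2548 and 4512 reads in CTRL and 1883, 1121 and 1937 in VDD males. Without VDD LF 2310, which had the fewest adipocyte reads, the lipogenesis median was 0.51 with 11 higher and 1 lower at that threshold. In that fit 6.80% of all genes were higher and 9.43% lower at the same threshold. Triglyceride synthesis and uptake was balanced, with 16 genes higher and 16 lower, against 20 and 12 without VDD LF 2310. The fatty acid receptor Cd36 within it had 128129, 82293 and 116187 reads against 74749, 54370 and 68348.

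Glycolysis genes, which split glucose, were more often higher than lower in VDD LF males. Of 22 tested, 15 were higher, with a median of 0.50. At an unadjusted p under 0.05, 4 were higher and 1 lower, against 3.12% and 3.67% of all genes. Gapdh had 9023, 8023 and 10720 normalized reads in CTRL LF and 14232, 40578 and 20143 in VDD LF males, highest in VDD LF 2310, whose muscle markers held 8.94% of reads. VDD LF 2078, with 0.00697%, was also above every CTRL male. The summed reads of the glycolysis genes were 76772, 58389 and 82821 against 96379, 271012 and 115472, also highest in VDD LF 2310, and the part of muscle in them was not tested. The glycolysis median was 0.23 without VDD LF 2310, with 15 of 22 higher. Gpi1 (0.85 ± 0.19) and Ldha (0.85 ± 0.28) did not overlap between groups either. Targets of the hypoxia factor HIF1 outside glycolysis had 4 of 11 genes higher, and Adm, the vasodilator adrenomedullin, was lower, at 117, 152 and 208 reads in CTRL and 53.2, 68.2 and 61.3 in VDD males. Of 44 insulin signalling genes, 19 were higher and 25 lower, against 18 and 26 without VDD LF 2310. Gys1, glycogen synthase, had 1736, 1658 and 1489.9 reads in CTRL and 2526, 2817 and 2411 in VDD males (0.67 ± 0.15).

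Macrophage genes were lower in VDD LF males, with a lower median once VDD LF 2310 was left out. Of 30 resident macrophage genes, 1 was higher and 29 lower (median -0.60). At an unadjusted p under 0.05, 9 were lower and 0 higher, against 3.67% and 3.12% of all genes. Timd4, a receptor for dying cells on long-lived resident macrophages, had 68.9, 83.4 and 60.4 normalized reads in CTRL LF and 28.9, 34.6 and 20.4 in VDD LF males (-1.33 ± 0.32, limma adjusted p = 0.60). Pf4, also a chemokine, had 407, 517 and 533 against 184, 272 and 248 (-1.06 ± 0.21). Cd209f, a lectin, had 519, 501 and 422 against 312, 261 and 154. These 3 genes were lower in every VDD male. The summed reads of the list were 35659, 46223 and 30898 against 16633, 43110 and 18570, so VDD LF 2310 was at the CTRL level. The abundant members followed the sum, with Lyz2, lysozyme, at 6911, 13819 and 5997 against 2738, 9905 and 2723. Without VDD LF 2310 the median of the list was -0.98 with 26 of 30 lower at an unadjusted p under 0.05. The share of all genes lower at that threshold was 9.43% in that fit.

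General macrophage markers had lower mean levels in VDD LF males, with overlap between the groups. Adgre1, which encodes F4/80, had 442, 859 and 449 normalized reads against 183, 557 and 224 (-0.97 ± 0.46, limma adjusted p = 0.758), and Cd68 had 378, 586 and 356 against 167, 522 and 265. Both overlapped between groups through VDD LF 2310 alone. Itgax, the CD11c integrin of recruited macrophages and dendritic cells, had 27.8, 51.8 and 47.4 against 46.3, 8.39 and 16.9, so that it overlapped through VDD LF 2078 and was lowest in VDD LF 2310. Leaving out VDD LF 2310 gave log2 differences of -1.45 for Adgre1, -1.02 for Cd68 and -0.53 for Itgax. The lipid-associated macrophage list had all 22 genes lower, with a median of -0.46 and 4 at an unadjusted p under 0.05 (3.67% of all genes). Its members Lipa, the lysosomal lipase, and Ctsl, a lysosomal protease, did not overlap (-0.61 ± 0.17 and -0.56 ± 0.21). Adipocytes and other cells express both genes as well.

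Mast cell and neutrophil genes had the lowest median of the immune lists, close to that of B lymphocytes. Of 11 tested, 10 were lower (median -1.51), and 6 were lower at an unadjusted p under 0.05, against 3.67% of all genes. Cma1, a mast cell chymase, had 418, 373 and 218 normalized reads against 65.96, 192 and 71.0. S100a8, a neutrophil calcium-binding protein, had 48.9, 35.6 and 32.2 against 8.10, 12.6 and 11.5. Mmp9, a gelatinase that neutrophils and macrophages release, had 279, 474 and 238 against 111, 104 and 131 (-1.45 ± 0.29, limma adjusted p = 0.575). In all 3 genes every VDD male was below every CTRL male, VDD LF 2310 included. The median of the list was -1.91 without VDD LF 2310, with 9 of 11 lower at an unadjusted p under 0.05 (9.43% of all genes). The 19 B lymphocyte genes were all lower (median -1.49), 5 of them at an unadjusted p under 0.05, against 3.67% of all genes. Without VDD LF 2310 none passed that threshold, and CTRL LF 2296 alone held most of their reads. T lymphocyte and NK genes had 16 of 21 lower with all libraries and 16 of 21 higher without VDD LF 2310, so no direction can be given.

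Signals between immune cells were lower more often than higher. Of 35 chemokine genes, 7 were higher and 28 lower (median -0.56). At an unadjusted p under 0.05, 1 was higher and 7 lower, against 3.12% and 3.67% of all genes. After Cxcl13 and Pf4, Ccl24, which draws eosinophils, did not overlap at 153, 183 and 106 normalized reads against 67.1, 82.9 and 74.6. Ccl27a, an epithelial chemokine, was the exception at 28.9, 42.1 and 41.3 in CTRL and 71.7, 56.6 and 78.1 in VDD males. The mouse genome holds close copies of it, so its level is less certain. Ccl2, which draws monocytes, had 25.6, 55.9 and 24.2 against 12.7, 37.8 and 21.3, and its groups overlapped. The chemokine median was -0.78 without VDD LF 2310. At an unadjusted p under 0.05, 2 were then higher and 14 lower, against 6.80% and 9.43% of all genes. Of 42 cytokine and receptor genes, 33 were lower (median -0.31) and 2 of them at an unadjusted p under 0.05, against 3.67% of all genes. That count was 19 without VDD LF 2310, against 9.43% of all genes in that fit. Il4ra, the receptor chain for IL-4 and IL-13, had 678, 1068 and 1000.3 against 535, 471 and 670.4. Tnf, Il6 and Il1b were too low to be tested, with at most 15.1 normalized reads in any library.

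The acute phase list had 4 of 14 genes higher and 10 lower (median -0.45). At an unadjusted p under 0.05, 2 were higher and 4 lower, against 3.12% and 3.67% of all genes. Without VDD LF 2310 the counts were 2 and 3, against 6.80% and 9.43% of all genes. Saa3, a serum amyloid protein made in inflamed fat, had 256, 2594 and 324 normalized reads in CTRL LF and 5.79, 134 and 85.2 in VDD LF males (-3.81 ± 1.30), and Lbp, which carries bacterial lipopolysaccharide, had 479.9, 587 and 644 against 134, 336 and 321. Serpina3m was higher, like its close relative Serpina3k. Toll-like receptor and inflammasome genes had 25 of 28 lower (median -0.43) with 3 at an unadjusted p under 0.05, complement genes 24 of 28 (median -0.38) with 1, and MHC class II genes 16 of 18 (median -0.36) with 0, against 3.67% of all genes. In the fit without VDD LF 2310 the counts were 8, 17 and 2, against 9.43% of all genes. The NF-kB subunits and their regulators, which relay many of these signals, lay near 0, with a median of 0.03 over 22 genes and 0 at an unadjusted p under 0.05. Nfkb1 had 548, 812 and 696 normalized reads against 571, 686 and 603, and Rela 741, 909.7 and 748 against 737, 754 and 948. Mapk14, which encodes p38α, had a log2 difference of 0.15 ± 0.15. Interferon response genes had 16 of 45 higher and 29 lower (median -0.09).

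**Figure D4:**
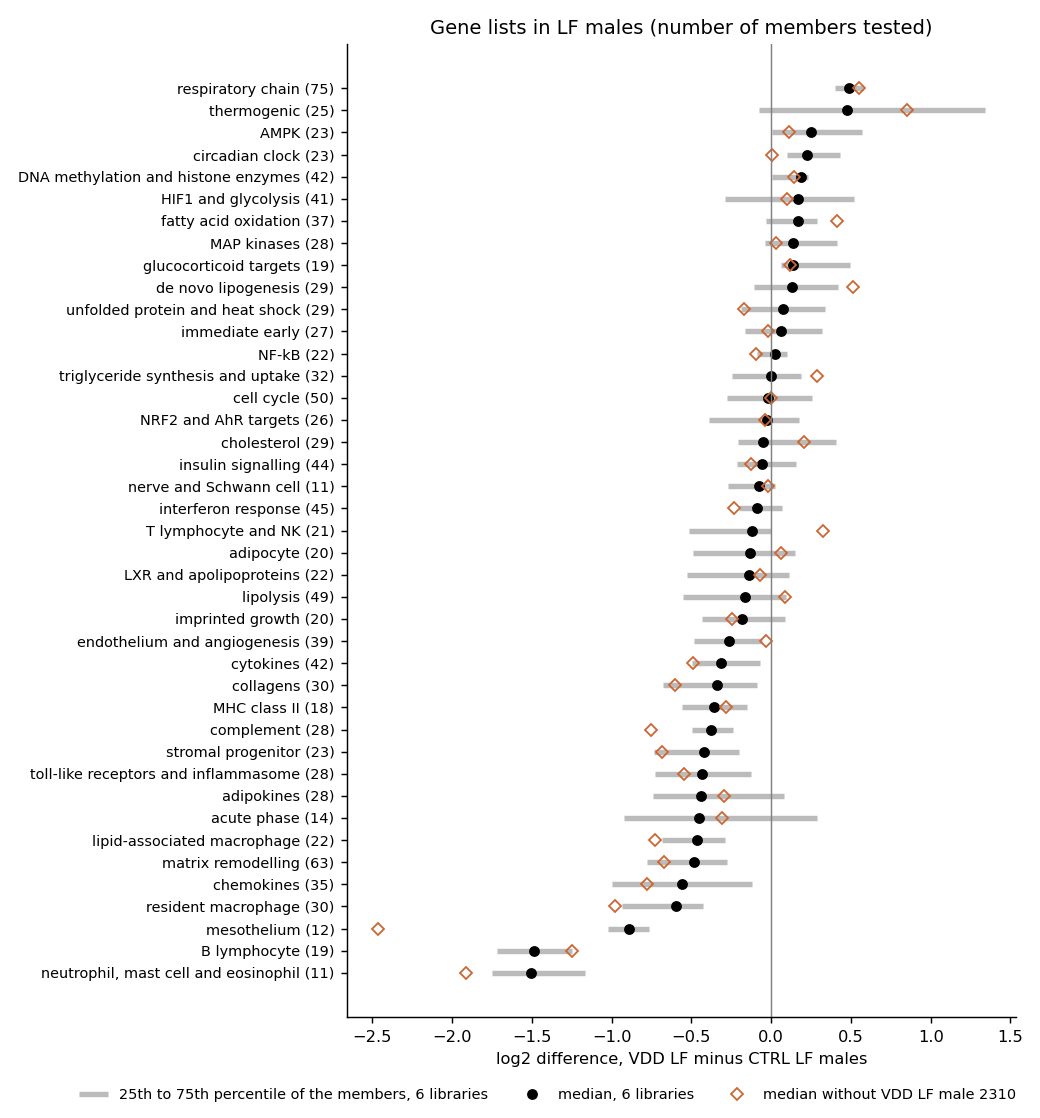
Log2 differences (VDD LF minus CTRL LF males) of 41 gene lists, with the number of members tested in brackets; bars span the 25th to 75th percentile of the members and black points mark their median in all 6 libraries, while open diamonds mark the median without VDD LF 2310. Of the lists shown, the respiratory chain (0.49) has the highest median and the neutrophil, mast cell and eosinophil list (-1.51) the lowest, and mesothelium moves furthest when VDD LF 2310 is left out (-0.89 to -2.47).

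Genes of the extracellular matrix and of the cells that make it were lower in VDD LF males as a group. Of 63 matrix remodelling genes, 4 were higher and 59 lower (median -0.48). At an unadjusted p under 0.05, 10 were lower and 0 higher, against 3.67% and 3.12% of all genes. Prelp, a matrix proteoglycan, had 7008, 8133 and 8485 normalized reads in CTRL LF and 1407, 2964 and 3768 in VDD LF males (-1.65 ± 0.36, limma adjusted p = 0.575). Nid1, a basement membrane linker, had 10500.5, 10476 and 10920 against 4913, 6401 and 6695 (-0.84 ± 0.20). Both were lower in all VDD males. Of 30 collagen genes, 24 were lower (median -0.34), and the basement membrane collagens had the lowest median of the collagen classes at -0.66. Leaving out VDD LF 2310 gave a collagen median of -0.60 over 29 genes. Col4a1, which sheathes adipocytes and vessels, had 10389, 12107 and 13845 reads against 6865, 5979 and 9687. Col12a1 had 144, 159 and 193 against 82.2, 73.4 and 71.0. Col7a1, of anchoring fibrils, was higher, at 16.7, 17.8 and 40.3 reads in CTRL and 55.5, 179 and 71.9 in VDD males.

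Stromal progenitors, the fibroblast-like cells from which adipocytes arise, had 20 of 23 marker genes lower (median -0.42). The genes lower at an unadjusted p under 0.05 numbered 6, against 3.67% of all genes. Pdgfra, their surface receptor, had 831, 1181 and 909.7 normalized reads against 432, 811 and 553. Mesothelium expresses several matrix genes too, and its summed markers were lowest in VDD LF 2078 and 2302, as the sums above show. The mean log2 level of the matrix genes was 9.38, 9.82 and 9.48 in CTRL LF and 8.39, 9.60 and 9.08 in VDD LF males, and that of the progenitor genes 9.52, 9.70 and 9.46 against 8.59, 9.68 and 8.94. VDD LF 2310, which had the most mesothelial reads, was at the CTRL level in both, and the part of mesothelium in the lower levels was not tested. Without VDD LF 2310, 29 of 63 matrix genes and 14 of 23 progenitor genes were lower at an unadjusted p under 0.05. The share of all genes was 9.43% in that fit, and the medians of these lists were -0.67 and -0.68. Endothelial genes had 33 of 39 lower (median -0.26). Ednrb, an endothelin receptor, had 1208, 1295 and 1385 reads against 846, 748 and 708 (-0.76 ± 0.14). Without VDD LF 2310 the endothelial median was -0.04, with 22 of 39 lower.

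Genes of the vitamin D pathway itself had no common direction. The receptor Vdr was low in this tissue, with 6.67, 17.0 and 24.2 normalized reads in CTRL LF and 3.47, 49.3 and 5.33 in VDD LF males, and its groups overlapped (-0.43 ± 0.98). Cyp24a1, which breaks active vitamin D down and is a strong target of the receptor, had 0 reads in all 6 libraries. A count of 0 allows up to 3 reads per library, of the 13720497 to 17330046 in all, for counting error only. Cyp27b1, the activating enzyme, had 0 to 4.44 normalized reads. The receptor's partners were higher, Rxrg at 238, 158 and 222 reads in CTRL and 256, 324 and 299 in VDD males (0.52 ± 0.22) and Rxrb at 677, 748 and 577 reads in CTRL and 756, 1013 and 796 in VDD males (0.35 ± 0.18). Rxra overlapped between groups. Pdia3, a protein linked to membrane responses to vitamin D, was lower (-0.30 ± 0.17). Of 8 tested members, 1 was higher and 0 lower at an unadjusted p under 0.05 (3.12% and 3.67% of all genes). Of 7 tested without VDD LF 2310, 0 were higher and 1 lower (6.80% and 9.43% of all genes).

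Clock genes were mostly higher, with 20 of 23 above 0 and a median of 0.22, but without VDD LF 2310 they divided into 12 higher and 11 lower. Per1, a repressor of the clock that glucocorticoids also induce, had 1278, 1229 and 1322 normalized reads in CTRL LF and 1876, 1611 and 1810.4 in VDD LF males (0.47 ± 0.14, limma adjusted p = 0.643). Nfil3, a clock output repressor, had 152, 101.2 and 199 against 246, 416 and 326. The promoter window of Per1 holds an E-box, the element bound by the clock activators, shown here on the plus strand with the E-box in capitals.
Per1, chr11:69098773-69098798, plus strand: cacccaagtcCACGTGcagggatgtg
Among 16 glucocorticoid targets, 14 were higher (median 0.36). At an unadjusted p under 0.05, 3 were higher, Per1, Rhou and the metallothionein Mt1, against 3.12% of all genes. Without VDD LF 2310, 11 of the 16 were higher (median 0.12), with 3 higher at that threshold against 6.80% of all genes. Clock, a core activator, overlapped between groups at 1355, 1197 and 1834 against 1424, 1479 and 1432.

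The same maternal contrast exists in HF-fed males and in LF-fed females, with libraries of their own. The difference between the effects was tested on reads scaled together over 12 libraries, and both tests use the same 6 LF male libraries. No gene differed in its maternal effect between LF and HF males at the calling threshold (0 of 16814, 0%; limma), with 226 (1.34%) positive and 426 (2.53%) negative differences at an unadjusted p under 0.05. Lep had the smallest p of the genes with a name and a mean of at least 50 scaled reads in 1 group. In HF males it had 9933, 6392 and 5718 scaled reads in CTRL and 15395, 14060.1 and 15535 in VDD males, a log2 difference of 1.07 against -3.53 in LF males. Lep was thus lower in VDD than in CTRL males under the LF diet and higher in every VDD male under the HF diet (difference -4.60 ± 0.73, adjusted p = 0.371 by limma). Gucd1 (difference 1.32 ± 0.22), Bmp3 (-2.17 ± 0.37) and Prr32 (-4.60 ± 0.84) followed. Gucd1 had a log2 difference of 0.04 in HF males. Coq8a was higher in VDD males under both diets, at 779, 1119.9 and 737 scaled reads in CTRL HF and 1625, 1542 and 2016 in VDD HF males, and its effects differed by 0.52 ± 0.28.

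Between LF males and LF females, 0 of 16916 genes (0%) differed in the maternal effect at the calling threshold by limma, with 335 (1.98%) positive and 443 (2.62%) negative at an unadjusted p under 0.05. Among genes selected in the same way, Cxcl13 had the smallest p. In LF females it had 54.2, 60.3 and 100.03 scaled reads in CTRL and 112, 137 and 177 in VDD mice, a log2 difference of 1.00 against -1.46 in males (difference -2.47 ± 0.35, adjusted p = 0.201 by limma). Every VDD female was above every CTRL female, the opposite of the order in males. Bmp3 had the same pattern, at 253, 217 and 254 in CTRL against 312, 474 and 339.6 in VDD females (difference -2.33 ± 0.34, adjusted p = 0.201 by limma). Serpina3k (2.33 ± 0.42) and Dusp9 (-4.08 ± 0.74) came next, with log2 differences of -0.10 and 0.28 in females.

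The respiratory chain had the same direction in all 3 comparisons. In HF males 74 of 75 genes were higher in VDD mice, with a median of 0.30 and 5 at an unadjusted p under 0.05 (1.34% of all genes higher and 0.856% lower), and in LF females all 75 were higher, with a median of 0.53 and 34 at that threshold (4.30% of all genes higher and 4.03% lower). Skeletal muscle markers held 0.0157 to 0.0404% of reads in CTRL HF and 0.0177 to 3.71% in VDD HF males, with 24 of 24 genes higher (median 5.48), and 0.00752 to 0.534% in CTRL LF and 0.00706 to 1.24% in VDD LF females, with 21 of 24 higher (median 0.73). None passed an unadjusted p under 0.05 by limma in either, and the part of muscle in the respiratory chain values there was not tested. For 0 of the 75 did the maternal effect of LF males differ from either at an unadjusted p under 0.05 by limma. Of the 11 members of the mast cell and neutrophil list, 8 were higher in VDD than in CTRL females. For 7 of the 11 the difference between males and females had an unadjusted p under 0.05, all negative (2.62% of all genes). Of the 30 resident macrophage genes, 27 were lower in HF males (median -0.25) and 22 in LF females (median -0.14), and the difference from LF males had an unadjusted p under 0.05 in 1 gene in each test.

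**Figure D5:**
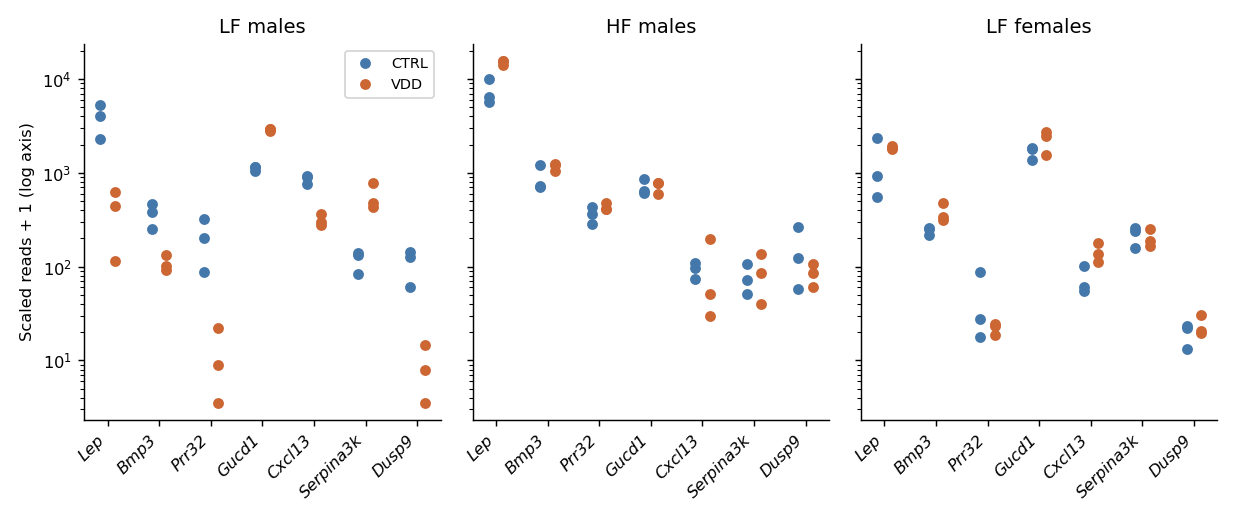
Scaled reads plus 1 (log axis) of 7 genes in LF males, HF males and LF females, 1 point per library, CTRL in blue and VDD in orange. They are the 4 genes with the smallest p in each of the 2 tests of difference, Bmp3 being in both. Unnamed entries and genes without a mean of at least 50 scaled reads in 1 group were left out. Lep is lower in VDD LF males (difference between diets -4.60) but higher in every VDD HF male, and Cxcl13 is lower in VDD LF males but higher in every VDD LF female (difference between sexes -2.47).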

How the data were processed

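RNA of retroperitoneal fat from 24 mice in 8 groups of 3 was sequenced by the authors with a stranded kit, trimmed with Sickle, aligned with STAR 2.7.0d to mm10 keeping unique positions, assembled with Cufflinks 2.2.1, counted with featureCounts 1.6.1 and scaled with DESeq2 (versions as the submitters' processing notes name them). The sources do not state the strand setting of the counting. The authors deposited 8 tables of 6 libraries each with log2(normalized reads + 1). Their own columns of log2 fold change, p-value and adjusted p-value were not used. The tables of LF males, HF males and LF females were used and 5 were not used here.

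Values were fitted with limma 3.58.1 (trend) in R 4.3.3, for genes that reached 10 normalized reads in 3 or more libraries. The design foresaw log2 values in the files, with another test in case they held raw read counts, and the log2 values were tested. Fold changes are on the log2(value + 1) scale, which understates those of low genes. Taking each value off the log2 scale and multiplying by its library's size factor gave whole reads, within 0.02, for every value. They served limma-voom, other scalings and the 2 differences between maternal effects. The script was tested on simulated data with genes changed by known folds. Left out were 4 entries whose names a spreadsheet had turned into repeated dates. Of the rest, 814 of the genes tested are loci that the authors' assembly added, and 53748 of 54425 other names are in GENCODE M21, which gave the coordinates. Promoters are from RefSeq.

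The members and the 49 gene lists were chosen with earlier results of these data known. The named genes were a fixed set, then the 12 higher and 12 lower genes with the smallest p and the 6 with the largest difference each way among those with groups that do not overlap and at least 50 reads in the higher group, up to 3 members per list and direction, the 4 with the smallest p for each difference between effects, and the most abundant markers. Clock was chosen after its values were seen. A few genes that the rule names are not reported here.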

Additional observations from a re-analysis of the deposited data

How the results depend on the processing

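No gene was called in 17 of the other fits of the comparison of 6 libraries. With library weights 3 genes were called, Coq8a (adjusted p = 0.00786 by limma), Cxcl13 (0.00499) and Gucd1 (0.00499), the weights running from 0.189 for VDD LF 2310 to 6.64 for VDD LF 2302. Genes with an unadjusted p under 0.05 numbered 1048 as reported, 1667 with no filter on low reads, 4367 with library weights, 1662 in a fit over 12 males and 396 without the libraries named renal, chosen after seeing the data. Of these, 482 were higher as reported, 2142 with weights and 140 without the renal libraries, and 566 were lower as reported, 952 with no filter, 2225 with weights, 971 over 12 males and 256 without the renal libraries. Leaving out 1 library at a time gave 520 to 2447 genes in all, 225 to 1025 higher and 295 to 1422 lower. The lowest counts came without CTRL LF 2287 and the highest without VDD LF 2310, and without CTRL LF 2296 295 were higher. Adding a term for muscle reads, chosen after seeing the data, left 0 genes called. The fit over 12 males had 3 genes at an adjusted p under 0.05 and the weighted fit 804 (limma). No difference between maternal effects was called in the alternatives run. With library weights, 29 genes differed between diets and 66 between sexes at an adjusted p under 0.05 (limma). The estimation of those weights did not converge for either difference.

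Of 2846 values of 159 named genes under the alternatives, 13 in 5 genes changed sign. With 1 library left out at a time, log2 differences ran from -0.92 to 0.24 for Vdr, -0.37 to 3.97 for Ucp1, -0.24 to 0.041 for Pparg, -0.28 to 0.0010 for Nfkb1 and -0.094 to 0.12 for Rela. Vdr was 0.35 without the renal libraries, Pparg was 0.20 with library weights and 0.048 with the muscle term, and Rela was -0.0275 with quantile normalization and -0.14 without the renal libraries. The cause was not tested. Of 881 medians of 49 lists, 23 moved. No paired analysis was possible because the columns carry animal numbers, not the replicate numbers of the labels, so no sample could be matched across groups. Tnf, Il6, Cyp24a1 and Cyp27b1 had too few reads to compare at this depth, and whether more depth would change this was not tested.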

Other observations

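Gene groups that the comparison has not yet described mostly lay near 0 when all libraries were used. Of 50 cell cycle genes, 23 were higher and 27 lower in VDD LF males, with a median log2 difference of -0.02 and 0 at an unadjusted p under 0.05 (limma). Of 42 enzymes that set DNA methylation and histone marks, 31 were higher, with a median of 0.19. Only 1 passed that threshold, against 3.12% of all genes higher and 3.67% lower. It was Hdac9, a histone deacetylase that restrains adipocyte differentiation, lower, at 114, 101.2 and 138 normalized reads in CTRL LF and 55.5, 45.1 and 51.5 in VDD LF males. Of 20 imprinted growth genes, 13 were lower (median -0.18), 4 of them at an unadjusted p under 0.05 (3.67% of all genes). These 4 were Peg10, Mest, Sgce and Nnat. Peg10 had 151, 269.7 and 291 reads in CTRL LF and 49.8, 111 and 70.1 in VDD LF males. Peg10 and Sgce are neighbours on the same chromosome. Nnat was named after its values were seen.

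Cholesterol synthesis and uptake had 12 of 29 genes higher and 17 lower (median -0.05). Without VDD LF 2310, 14 of 20 synthesis genes were higher (median 0.28), as were 5 of 9 uptake and regulator genes (median 0.05). Of the 20 synthesis genes, 6 were then higher and 0 lower at an unadjusted p under 0.05 (6.80% and 9.43% of all genes by limma). Fdft1, which makes squalene, had 1181, 642 and 675 normalized reads in CTRL LF and 1989, 1212 and 2090.1 in VDD LF males (1.10 ± 0.31). Among targets of LXR, Pltp, a phospholipid transfer protein, had 4190.4, 3244 and 2787 against 1046, 2319 and 1515, and Abcg1, a cholesterol exporter, was lower too (-0.90 ± 0.28). Cyp1a1, a target of the aryl hydrocarbon receptor, had 144, 65.6 and 181 against 1.16, 17.8 and 53.3. Atf4, a transcription factor of the stress response, had 1722, 2194 and 1971 against 3375, 3395 and 2855 (0.71 ± 0.16). Of 29 unfolded protein and heat shock genes, 16 were higher (median 0.07). Pdia4, Hyou1 and Calr were lower in all 3 VDD males. Of 18 genes of the ER group, 12 had a log2 difference below 0 (median -0.15). Without overlap between groups, 4 of the 18 were lower and 1 higher, against 6.59% and 6.83% of all genes. Of 11 heat shock genes, 10 were higher (median 0.25), but only 5 without VDD LF 2310 (median -0.06). Gadd45b, an early response gene, had 94.4, 94.8 and 67.5 against 189.8, 371 and 205. None of the genes given by name here passed the adjusted threshold, the smallest adjusted p among them being 0.575 (limma).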
